A study of Mus musculus with 4 samples.

Results

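Nodal signalling in the early embryo runs through a small set of proteins, and this report follows the RNA of 10 of them in mouse embryonic stem cells (ESCs) with and without Cripto. The genes were Tdgf1, which encodes Cripto, its relative Cfc1 (Cryptic), the ligands Nodal and Gdf3, the secreted antagonists Lefty1 and Lefty2, the receptors Acvr1b, Acvr2a and Acvr2b, and the intracellular antagonist Smad7. They were chosen by name for their place in the pathway, and they are 10 of the 37620 genes counted and 10 of the 15462 genes that the authors kept after removing low values. All 10 passed that filter.

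The cells were R1 mouse ESCs of the strain 129/Sv, either wild type (WT) or Cripto KO. The WT serum/LIF and Cripto KO serum/LIF libraries came from ESCs kept in serum with leukemia inhibitory factor. The WT F/A and Cripto KO F/A libraries came from cells labelled EpiSC, grown for 6 days in N2B27 medium with bFGF and Activin A at 20 ng per ml, the medium that turns ESCs into epiblast stem cells. Each condition is 1 library of total RNA, so no value has a replicate error, no test between conditions was run, and every difference is between single cultures. The study describes more than 1 Cripto KO clone, but the labels do not say which was sequenced, so a difference from WT cannot be told apart from a difference between clones.

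Nodal and its relatives bind a complex of type I and type II serine/threonine kinase receptors, and Nodal needs an EGF-CFC co-receptor such as Cripto or Cryptic to do so. The activated receptors phosphorylate Smad2 and Smad3, which enter the nucleus with Smad4 and act with partners such as Foxh1. Nodal, Lefty1 and Lefty2 are known targets of this signal, and since the Lefty proteins block Nodal the pathway holds itself in check. Activin A, which is in the F/A medium, uses the same receptors but does not need a co-receptor. In the mouse embryo this pathway keeps the epiblast pluripotent and later patterns the anterior-posterior and left-right axes.

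Lefty1 and Lefty2 lie next to each other on chromosome 1 and resemble each other closely, which bears on how well reads could be assigned to them. Over all 1107 coding bases of NCBIM37 transcripts the genes differed at 90 positions and were 91.9% identical. Of the stretches of 100 bases in the longest Lefty2 transcript, 3.08% also occurred in Lefty1, and of those of 50 bases 11.6% did. From the side of the shorter Lefty1 transcript the shares were larger, 4.80% and 17.9%. Counts of Lefty1 and Lefty2 therefore carry an uncertainty from shared sequence that is largest for short alignments. Tdgf1 and Cfc1 shared 0 stretches of 50 bases.

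A promoter window in RefSeq (GRCm38.p6), from 250 bases before to 50 bases after the start, was matched for 6 of the 10 genes, namely Tdgf1, Cfc1, Nodal, Acvr1b, Acvr2a and Acvr2b. The 250 bases before the Tdgf1 start, at chr9:110946159-110946408 on the - strand, are shown because Tdgf1 had the highest level and the steepest genotype difference of the 10 genes. Capitals mark 2 copies of GGGCGTGG, letters that Klf proteins are known to bind, which were looked for after the sequence had been read.
Tdgf1: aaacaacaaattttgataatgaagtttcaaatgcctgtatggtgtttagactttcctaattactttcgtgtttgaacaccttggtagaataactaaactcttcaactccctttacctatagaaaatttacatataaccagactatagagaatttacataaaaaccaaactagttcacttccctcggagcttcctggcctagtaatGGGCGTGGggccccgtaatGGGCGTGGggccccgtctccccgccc
The copies begin 45 and 26 bases before the start and lie in a stretch of sequence that is repeated in tandem. On either strand, 5.33% of the 32851 promoter windows held GGGCGTGG and 0.728% held it at least 2 times. The FOXH1 letters TGTGTATT or TGTGGATT occurred in 1.82% of all windows, the SMAD palindrome GTCTAGAC in 0.213% and the GC-rich SMAD letters GGCGCC in 11.9%. Of the 6 matched windows, that of Acvr1b held GGCGCC and none held the FOXH1 letters or the palindrome, and no 2 of these motifs overlapped in them.

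Raw counts on genes summed to between 15230856 and 17315442 per library. Odd counts were found for 3 of 18700 detected genes in the Cripto KO F/A library (0.0160%), against 53.1% to 53.6% in the other libraries. The counts of this library were therefore divided by 2 wherever a counting error was computed, and its detection limit was set at 6 counts in place of 3. Below, counts are raw counts, a fold or log2 change is the ratio of the authors' quantile-normalized values, and each range in parentheses is an exact 95% interval for the ratio of raw counts scaled by library totals. These intervals cover counting error only and not the spread between cultures, and because the scalings differ a fold can lie near the edge of its interval or, for Ski, just outside it.

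The labels were checked first against the targeted gene. Tdgf1 (ENSMUSG00000032494, chr9:110842114-110848662, - strand) had 18714 counts in WT serum/LIF, 1572 in WT F/A, 945 in Cripto KO serum/LIF and 86 in Cripto KO F/A. Both Cripto KO libraries were below both WT libraries, and within each genotype the F/A library was the lower one. Tdgf1 was 17.5-fold lower in Cripto KO than in WT in serum/LIF (interval 17.4 to 19.9) and 17.8-fold lower in F/A (14.0 to 26.2). The part of the gene that is lost in these cells was not identified here, so the remaining counts say nothing of Cripto protein. The processed pseudogene Tdgf1-ps2 on chromosome 17 had at most 1 count in any library.

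Tdgf1 was lower in F/A in both genotypes. The WT libraries differed 10.5-fold between the media (9.95 to 11.0) and the Cripto KO libraries 10.7-fold (7.84 to 14.8). The difference between these transitions was -0.02 log2 units, with a counting interval of -0.47 to 0.42. These are RNA values only. The study reports that Cripto protein at the cell surface was higher in WT EpiSCs than in ESCs kept in serum/LIF.

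Cfc1 encodes Cryptic, the other EGF-CFC co-receptor of the mouse, which is best known from the node and the lateral plate mesoderm. Cfc1 (ENSMUSG00000026124, chr1:34592493-34601156, + strand) had 3 counts in WT serum/LIF, 210 in WT F/A, 5 in Cripto KO serum/LIF and 390 in Cripto KO F/A. It was at or near the detection limit in both serum/LIF libraries and well above it in both F/A libraries. The change to F/A was 95.6-fold in WT (26.9 to 389) and 81.1-fold in Cripto KO (33.9 to 251). In F/A it was 1.79-fold higher in Cripto KO than in WT (1.47 to 2.19), short of 2-fold. In serum/LIF the ratio of 2.11 rests on 5 against 3 counts and has an interval of 0.345 to 11.4.

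Between the co-receptors the order turned over in one library. Per kb of transcript, the ratio of Cfc1 to Tdgf1 was 0.000297 in WT serum/LIF, 0.00981 in Cripto KO serum/LIF and 0.248 (0.213 to 0.286) in WT F/A. In Cripto KO F/A it was 8.41 (6.02 to 12.0). Cfc1 RNA was thus above that of Tdgf1 in Cripto KO F/A and below it in the other libraries.

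Markers of tissues that express Cfc1 in the embryo followed it in part. Of the 4 node and lateral plate markers Noto, Foxj1, Foxf1 and Hand2, 2 were at or under the detection limit in each serum/LIF library and 0 in the F/A libraries. Their summed level was 4.04 CPM (counts scaled to the library total) in WT serum/LIF, 6.09 in Cripto KO serum/LIF, 22.4 in WT F/A and 56.7 in Cripto KO F/A. The lateral plate markers carried the difference in F/A, with Hand2 at 81 counts in WT F/A and 584 in Cripto KO F/A and Foxf1 at 44 and 190. The node markers did not follow Cfc1 there, with Noto at 61 and 58 counts and Foxj1 at 155 and 60, and Foxj1 had 91 counts in Cripto KO serum/LIF. Their part in the Cfc1 values was not tested, and in bulk RNA more cells that express a gene and more RNA per cell cannot be told apart. Cfc1 also overlaps Prss40 on the opposite strand, which had 3, 26, 4 and 50 counts in WT serum/LIF, WT F/A, Cripto KO serum/LIF and Cripto KO F/A. The strand setting of the counting is not given in the sources used here, so reads of the shared part cannot be assigned with certainty.

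**Figure D1:**
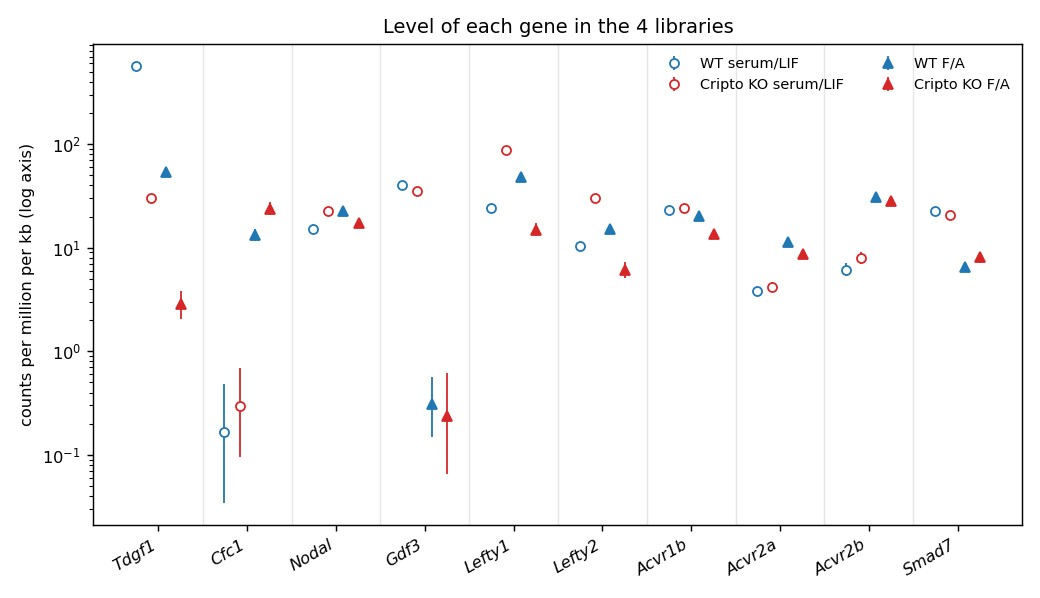
Level of each of the 10 genes in the 4 libraries, in CPM per kb of the longest annotated transcript on a log axis. Each point is 1 library (circles, serum/LIF; triangles, F/A; blue, WT; red, Cripto KO) and bars are exact 95% Poisson intervals of the count. Tdgf1 in WT serum/LIF stands above every other value at 561, and Cfc1 in serum/LIF and Gdf3 in F/A lie below 1.

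Among the ligands, Nodal stayed within 2-fold and Gdf3 was far lower in F/A in both genotypes. Nodal (ENSMUSG00000037171, chr10:60880720-60888086, + strand), the main ligand of the pathway in the epiblast, had 547 counts in WT serum/LIF, 721 in WT F/A, 770 in Cripto KO serum/LIF and 572 in Cripto KO F/A. WT F/A and Cripto KO serum/LIF were the higher pair. In WT it was 1.41-fold higher in F/A (1.34 to 1.68), and in Cripto KO 1.40-fold lower (1.14 to 1.498). Against WT, Cripto KO was 1.51-fold higher in serum/LIF (1.34 to 1.68) and 1.30-fold lower in F/A (1.13 to 1.499). No Nodal change reached 2-fold.

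Gdf3 (ENSMUSG00000030117, chr6:122555421-122560105, - strand) encodes a Nodal-related ligand that also signals through Cripto and is typical of naive ESCs. It had 1469 counts in WT serum/LIF, 10 in WT F/A, 1226 in Cripto KO serum/LIF and 8 in Cripto KO F/A. Both serum/LIF libraries were high and both F/A libraries close to the detection limit, whatever the genotype. It was 132-fold lower in F/A in WT (70.1 to 270.0) and 125-fold lower in Cripto KO (57.8 to 545). The genotype ratio was 0.879 in serum/LIF (0.823 to 0.959) and 0.930 in F/A (0.177 to 2.68), where it rests on 8 against 10 counts. Per kb, Gdf3 stood at 2.65 times the level of Nodal in WT serum/LIF and 0.0137 times in WT F/A, and at 1.57 and 0.0138 times in the corresponding Cripto KO libraries.

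The secreted antagonists were the genes whose direction depended on genotype most. Lefty1 (ENSMUSG00000038793, chr1:182865153-182868531, + strand) had 684 counts in WT serum/LIF, 1200 in WT F/A, 2330 in Cripto KO serum/LIF and 380 in Cripto KO F/A. The highest and the lowest library were both Cripto KO. In serum/LIF it was 3.52-fold higher in Cripto KO than in WT (3.33 to 3.96), and in F/A 3.24-fold lower (2.798 to 3.82). From serum/LIF to F/A it was 1.86-fold higher in WT (1.81 to 2.19) and 6.13-fold lower in Cripto KO (5.12 to 6.92).

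Lefty2 (ENSMUSG00000066652, chr1:182823239-182829234, + strand), a second secreted inhibitor that in the embryo marks the left lateral plate, had the same order of libraries. It had 442 counts in WT serum/LIF, 571 in WT F/A, 1224 in Cripto KO serum/LIF and 238 in Cripto KO F/A. Cripto KO was 2.96-fold higher than WT in serum/LIF (2.64 to 3.30) and 2.48-fold lower in F/A (2.03 to 3.05). The change to F/A was 1.41-fold upward in WT (1.29 to 1.67) and 5.22-fold downward in Cripto KO (4.12 to 6.06).

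The balance of antagonist to ligand RNA varied with both. Per kb, the ratio of Lefty1 to Lefty2 ran from 2.36 in WT serum/LIF to 3.21 in WT F/A. The ratio of Lefty1 to Nodal was 1.62 in WT serum/LIF (1.44 to 1.81), 2.15 in WT F/A (1.96 to 2.36), 3.91 in Cripto KO serum/LIF (3.61 to 4.25) and 0.859 in Cripto KO F/A (0.711 to 1.04). Lefty2 to Nodal was 0.685, 0.671, 1.35 and 0.352 in the same order. Both ratios were highest in Cripto KO serum/LIF and lowest in Cripto KO F/A, without overlap of their intervals with those of WT in the same medium.

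**Figure D2:**
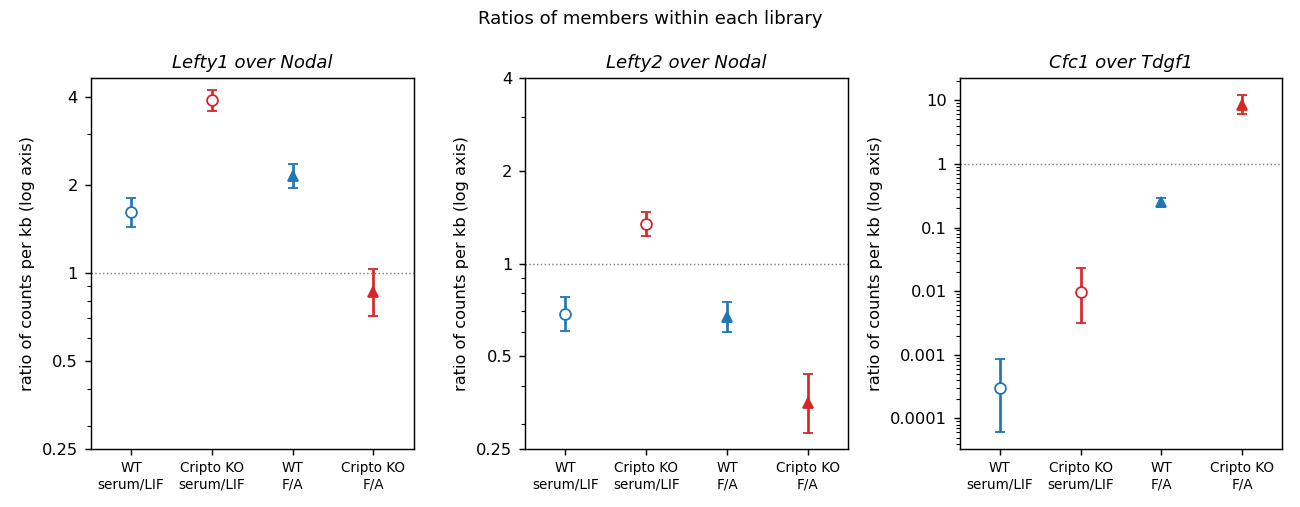
Ratios of the levels per kb of Lefty1 to Nodal, Lefty2 to Nodal and Cfc1 to Tdgf1 in each library, on log axes, with exact 95% counting intervals (circles, serum/LIF; triangles, F/A; blue, WT; red, Cripto KO). The Lefty ratios run from 0.352 to 3.91 with the Cripto KO libraries at both ends, and Cfc1 over Tdgf1 lies above 1 in Cripto KO F/A alone, at 8.41.

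The type I receptor of the set was lower and the type II receptors were higher in F/A. Acvr1b (ENSMUSG00000000532, chr15:101004556-101043032, + strand), the type I receptor ALK4, had 1313 counts in WT serum/LIF, 1014 in WT F/A, 1282 in Cripto KO serum/LIF and 706 in Cripto KO F/A. Its serum/LIF libraries were close and Cripto KO F/A was the lowest. It was 1.22-fold lower in F/A in WT (1.05 to 1.24) and 1.83-fold lower in Cripto KO (1.56 to 1.98), and in F/A 1.45-fold lower in Cripto KO than in WT (1.31 to 1.68). In serum/LIF the genotype ratio was 1.03 (0.962 to 1.12).

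Acvr2a (ENSMUSG00000052155, chr2:48669629-48758789, + strand), a type II receptor of Activin and Nodal, had 374 counts in WT serum/LIF, 990 in WT F/A, 390 in Cripto KO serum/LIF and 782 in Cripto KO F/A. It was 2.87-fold higher in F/A in WT (2.67 to 3.40) and 1.94-fold in Cripto KO (1.80 to 2.39). Its 3′ end overlaps Orc4 on the opposite strand, a gene of the origin recognition complex with 884, 755, 878 and 638 counts in the same order.

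Acvr2b (ENSMUSG00000061393, chr9:119311562-119342619, + strand), the other type II receptor of this kind, had 184 counts in WT serum/LIF, 807 in WT F/A, 223 in Cripto KO serum/LIF and 770 in Cripto KO F/A. The F/A libraries were close and above both serum/LIF libraries. It was 4.78-fold higher in F/A in WT (4.24 to 5.88) and 3.27-fold in Cripto KO (3.02 to 4.23). Between genotypes the ratio was 0.945 in F/A (0.816 to 1.04) and 1.38 in serum/LIF (1.06 to 1.58).

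Smad7 (ENSMUSG00000025880, chromosome 18), which binds activated type I receptors and is itself induced by TGF-beta signals, had 1666 counts in WT serum/LIF, 422 in WT F/A, 1439 in Cripto KO serum/LIF and 542 in Cripto KO F/A. It was higher in both serum/LIF libraries. In F/A it was 3.66-fold lower in WT (3.12 to 3.87) and 2.71-fold lower in Cripto KO (2.26 to 2.94). The genotype ratio was 1.22 in F/A (1.06 to 1.45) and 0.902 in serum/LIF (0.857 to 0.988). Smad7 and the Lefty genes, inhibitors at different steps, thus had different patterns over the 4 libraries.

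Counted over the 10 genes, 3 were at least 2-fold higher in F/A in WT (Cfc1, Acvr2a, Acvr2b) and 3 at least 2-fold lower (Tdgf1, Gdf3, Smad7), where 22.1% and 20.9% of all genes were. In Cripto KO 2 were higher (Cfc1, Acvr2b) and 5 lower (Tdgf1, Gdf3, Lefty1, Lefty2, Smad7), against 19.9% and 19.4% of all genes. Between genotypes in F/A 0 were higher and 3 lower in Cripto KO (Tdgf1, Lefty1, Lefty2), against 4.57% and 5.69%. In serum/LIF 3 were higher (Lefty1, Lefty2 and, at 5 against 3 counts, Cfc1) and 1 lower (Tdgf1), against 2.86% and 2.73%. The median log2 change of the 10 genes was 0.49 in the WT transition and -1.16 in the Cripto KO transition, beside -0.07 for all genes in both, and -0.37 in F/A and 0.33 in serum/LIF between genotypes, beside 0 for all genes. The genes were chosen by name with earlier results known, and Tdgf1 differs by design.

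**Figure D3:**
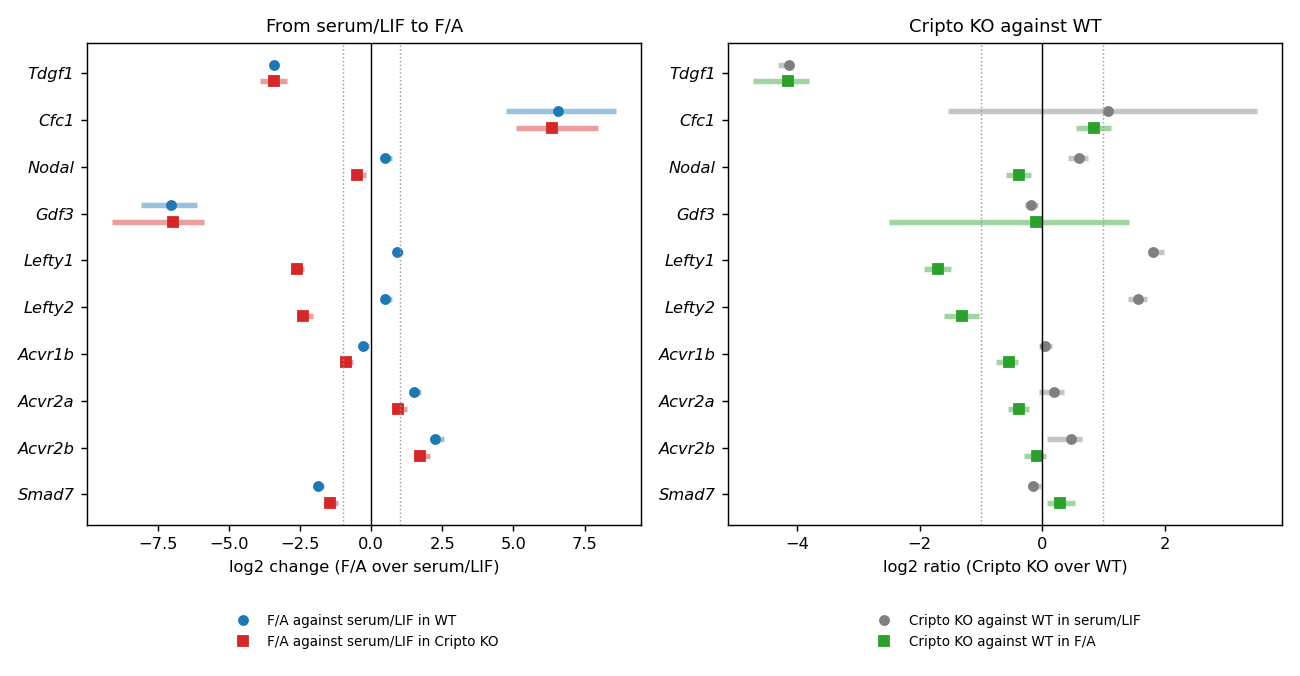
Log2 change of each of the 10 genes from serum/LIF to F/A (left; blue circles, WT; red squares, Cripto KO) and log2 ratio of Cripto KO to WT (right; grey circles, serum/LIF; green squares, F/A). Points are ratios of normalized values, thick lines exact 95% counting intervals from raw counts, and dotted lines mark 2-fold. Lefty1 and Lefty2 lie on opposite sides of 0 in WT and Cripto KO and in the 2 media, Lefty1 at 0.90 and -2.62 for the transitions.

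The difference of the transitions, Cripto KO minus WT, put the Lefty genes apart from the receptors. It was -3.51 log2 units for Lefty1 (counting interval -3.82 to -3.31), -2.88 for Lefty2 (-3.20 to -2.54) and -0.98 for Nodal (-1.22 to -0.71). At 1 log2 unit or more below 0, Lefty1 and Lefty2 were 2 of the 10 genes, where 9.38% of all genes were, and 0 of the 10 were as far above 0, where 7.68% were. For Acvr1b, Acvr2a and Acvr2b it lay between -0.58 and -0.55, and for Smad7 at 0.44 (0.19 to 0.68). The intervals of Cfc1 (-2.07 to 2.10) and Gdf3 (-1.88 to 1.48) were wide, since each had at most 10 counts in 2 libraries. Nodal, Lefty1 and Lefty2 moved upward in WT and downward in Cripto KO on the change to F/A, with both counting intervals leaving out 1, a pattern held by 398 (2.57%) of all genes, and no member had the reverse. An interaction of genotype and medium cannot be tested with 1 library per condition.

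The order of levels per kb changed with each library. In WT serum/LIF Tdgf1 led at 561 CPM per kb (553 to 570), ahead of Gdf3 at 39.9, then Lefty1, Acvr1b and Smad7 at 24.4, 23.1 and 22.5, whose neighbouring intervals overlapped. In WT F/A Tdgf1 at 53.6 (51.0 to 56.3) and Lefty1 at 48.6 (45.9 to 51.5) overlapped at the top, followed by Acvr2b at 30.6. In Cripto KO serum/LIF Lefty1 led at 88.5 (84.9 to 92.1), ahead of Gdf3 at 35.5, with Lefty2 and Tdgf1 overlapping at 30.4 and 30.2. In Cripto KO F/A Acvr2b at 28.3 (25.5 to 31.3) and Cfc1 at 23.9 (20.6 to 27.5) overlapped at the top, and Tdgf1 was the ninth at 2.84 (2.05 to 3.82). Gdf3 was the last of the 10 in both F/A libraries and Cfc1 in both serum/LIF libraries. These levels depend on the annotated lengths, which ran from 1038 bases for Cfc1 to 5686 for Acvr2a.

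The genes closest in pattern to Tdgf1, Nodal and Lefty1 were sought among 10795 genes with at least 200 counts in their highest library. The measure was the largest difference in log2 normalized value over the 4 libraries after each profile was centred on its own mean. Nodal had near neighbours, Dtna at 0.04, Snx30 at 0.08 and Epha2 at 0.08. For Lefty1 they were Celsr3 at 0.51, Elavl2 at 0.56 and Ankrd12 at 0.62, while Lefty2 was closer than any of these at 0.24. For Tdgf1 they were Tgm3 at 1.497, Ube1y1 at 1.61 and Efhc2 at 1.70, so no gene came near its profile. Tgm3 had 217 counts in WT serum/LIF, 22 in WT F/A, 81 in Cripto KO serum/LIF and 6 in Cripto KO F/A. With 4 libraries such likeness is a description only.

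A list of 46 other genes was set beside the 10, drawn from this pathway and from the related TGF-beta and BMP branches. They are called pathway genes for short, and 44 of them passed the filter (Gdf1 and Acvr1c did not). In F/A 24 of the 44 were at least 2-fold higher and 3 lower in WT, against 22.1% and 20.9% of all genes, and 23 higher and 4 lower in Cripto KO, against 19.9% and 19.4%. Between genotypes 2 were higher and 8 lower in Cripto KO in F/A, against 4.57% and 5.69%, and 2 higher and 2 lower in serum/LIF, against 2.86% and 2.73%. The median log2 change was 1.18 and 1.35 for the WT and Cripto KO transitions, beside -0.07 for all genes in both, and -0.12 in F/A and 0.07 in serum/LIF between genotypes, beside 0 for all genes.

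The other ligands mostly differed between media. Of the 6 that passed, 4 were at least 2-fold higher and 2 lower in F/A in each genotype. Of all genes, 22.1% were higher and 20.9% lower in WT, and 19.9% and 19.4% in Cripto KO. Inhbb, a subunit of Activin B, had 2287 counts in WT serum/LIF, 7 in WT F/A, 1392 in Cripto KO serum/LIF and 6 in Cripto KO F/A, a decline like that of Gdf3. Tgfb2 had 19, 2681, 35 and 3284 counts in that order. In serum/LIF it was 2.34-fold higher in Cripto KO (1.09 to 3.63), the 1 ligand past 2-fold there. Inhba was 2.71-fold lower in Cripto KO F/A than in WT F/A, but on 4 against 13 counts and with an interval of 0.760 to 30.7.

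Among the convertases, which cleave ligand precursors, Furin was 4.95-fold higher in F/A in WT (4.65 to 5.89) and 3.89-fold in Cripto KO (3.61 to 4.67). Pcsk5 was 7.99-fold and 9.82-fold higher, whereas Pcsk6 was 17.9-fold and 12.9-fold lower. None of the 3 differed 2-fold between genotypes. The type I receptors Tgfbr1 and Acvr1 and the type II receptors Tgfbr2 and Bmpr2 were all at least 2-fold higher in F/A in both genotypes, as Acvr2b was, from 2.41-fold for Acvr1 in Cripto KO to 7.08-fold for Bmpr2 in WT. Between genotypes all 4 stayed within 2-fold. Of all genes, 22.1% in WT and 19.9% in Cripto KO were at least 2-fold higher in F/A. Between genotypes 4.57% of all genes were higher and 5.69% lower in F/A, and 2.86% and 2.73% in serum/LIF.

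Of 6 co-receptors, Cripto binding proteins and membrane inhibitors, 3 were at least 2-fold higher in F/A in each genotype. Of all genes, 22.1% were in WT and 19.9% in Cripto KO. Tgfbr3, the co-receptor betaglycan, had 133 counts in WT serum/LIF, 1513 in WT F/A, 111 in Cripto KO serum/LIF and 732 in Cripto KO F/A, and was 2.09-fold lower in Cripto KO than in WT in F/A (1.90 to 2.40). Bambi, a receptor decoy, had 169, 367, 137 and 838 counts in that order and was 2.19-fold higher in Cripto KO F/A (1.92 to 2.55). Gpc1 was 2.09-fold higher in F/A in WT (2.03 to 2.45) and 2.70-fold in Cripto KO. Hspa5 (GRP78), which binds Cripto at the cell surface, stayed within 2-fold throughout, at 1.03 in F/A between genotypes (0.984 to 1.08).

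The other secreted antagonists did not share the pattern of the Lefty genes as a group. Cer1, which binds Nodal and is induced by it, had 1 count in WT serum/LIF, 467 in WT F/A, 0 in Cripto KO serum/LIF and 82 in Cripto KO F/A, and was 5.68-fold lower in Cripto KO than in WT in F/A (4.27 to 8.31). Fst, which binds Activin, had 184, 795, 269 and 1138 counts in that order and was 1.42-fold higher in Cripto KO F/A (1.24 to 1.54). It was 4.71-fold higher in F/A in WT and 4.04-fold in Cripto KO. Dand5 and Fstl3 had at most 59 counts in any library.

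Among the Smads, Smad3 was 5.61-fold higher in F/A in WT (5.37 to 6.59) and 6.78-fold in Cripto KO (6.20 to 7.81), while Smad2 and Smad4 stayed within 2-fold. Smad6, the inhibitory Smad of the BMP branch, had 81 counts in WT serum/LIF, 303 in WT F/A, 55 in Cripto KO serum/LIF and 780 in Cripto KO F/A. It was 2.50-fold higher in Cripto KO F/A than in WT F/A (2.14 to 2.90). Smad6 and Bambi were the 2 genes of the list at least 2-fold higher there.

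The nuclear partners, co-repressors, ubiquitin ligases and the phosphatase, 10 genes in all, stayed within 2-fold between genotypes in both media. Most genes did so, with 4.57% of all genes higher and 5.69% lower in F/A, and 2.86% and 2.73% in serum/LIF. Ski alone passed 2-fold in a transition, at 2.01 in WT (2.02 to 2.28). Of all genes, 22.1% were at least 2-fold higher and 20.9% lower in F/A in WT, and 19.9% and 19.4% in Cripto KO. Skil (SnoN), a co-repressor known to be induced by the pathway, had 2136 counts in WT serum/LIF, 2890 in WT F/A, 3298 in Cripto KO serum/LIF and 1966 in Cripto KO F/A. It was the 1 gene of the list that, like Nodal, Lefty1 and Lefty2, moved upward in WT (1.47-fold, 1.45 to 1.63) and downward in Cripto KO (1.61-fold, 1.51 to 1.75). Of all genes, 2.57% had this pattern with both counting intervals leaving out 1, so 1 of the 44 does not stand out. Its genotype ratio was 1.61 in serum/LIF (1.56 to 1.74) and 0.683 in F/A (0.612 to 0.708).

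Of 8 genes known to respond to Nodal or Activin, Cer1 among them, 7 were at least 2-fold higher in F/A in each genotype, against 22.1% of all genes in WT and 19.9% in Cripto KO. Between genotypes in F/A 0 were higher and 6 lower in Cripto KO, against 4.57% and 5.69% of all genes, with a median log2 ratio of -1.81 beside 0 for all genes. Lhx1, a factor of the anterior streak and organizer, had 1909 counts in WT F/A and 322 in Cripto KO F/A, a 6.14-fold difference (5.21 to 7.24). Eomes had 1963 and 422 counts and was 4.88-fold lower (4.17 to 5.57), Gsc 227 and 54 counts and 3.98-fold lower (2.91 to 6.74), and Mixl1 121 and 36 counts and 3.08-fold lower (2.11 to 6.06). Pmepa1, a feedback inhibitor, was 2.17-fold lower (1.69 to 2.86).

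The remaining response genes were within 2-fold in F/A, with genotype ratios of 0.838 for Fgf8 and 0.645 for Foxa2. In serum/LIF, where Lefty1 and Lefty2 were higher in Cripto KO, 7 of the 8 response genes had at most 86 counts in either genotype. Eomes had 86 counts in WT serum/LIF and 27 in Cripto KO serum/LIF and was 2.83-fold lower (1.92 to 4.80). In Cripto KO serum/LIF Foxa2 was more than 2-fold higher and Gsc more than 2-fold lower, but on 11 against 5 and 1 against 7 counts. Both of their intervals held 1. Of all genes, 2.86% were at least 2-fold higher and 2.73% lower in Cripto KO in serum/LIF. The eighth, Pmepa1, had 556 and 562 counts.

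**Figure D4:**
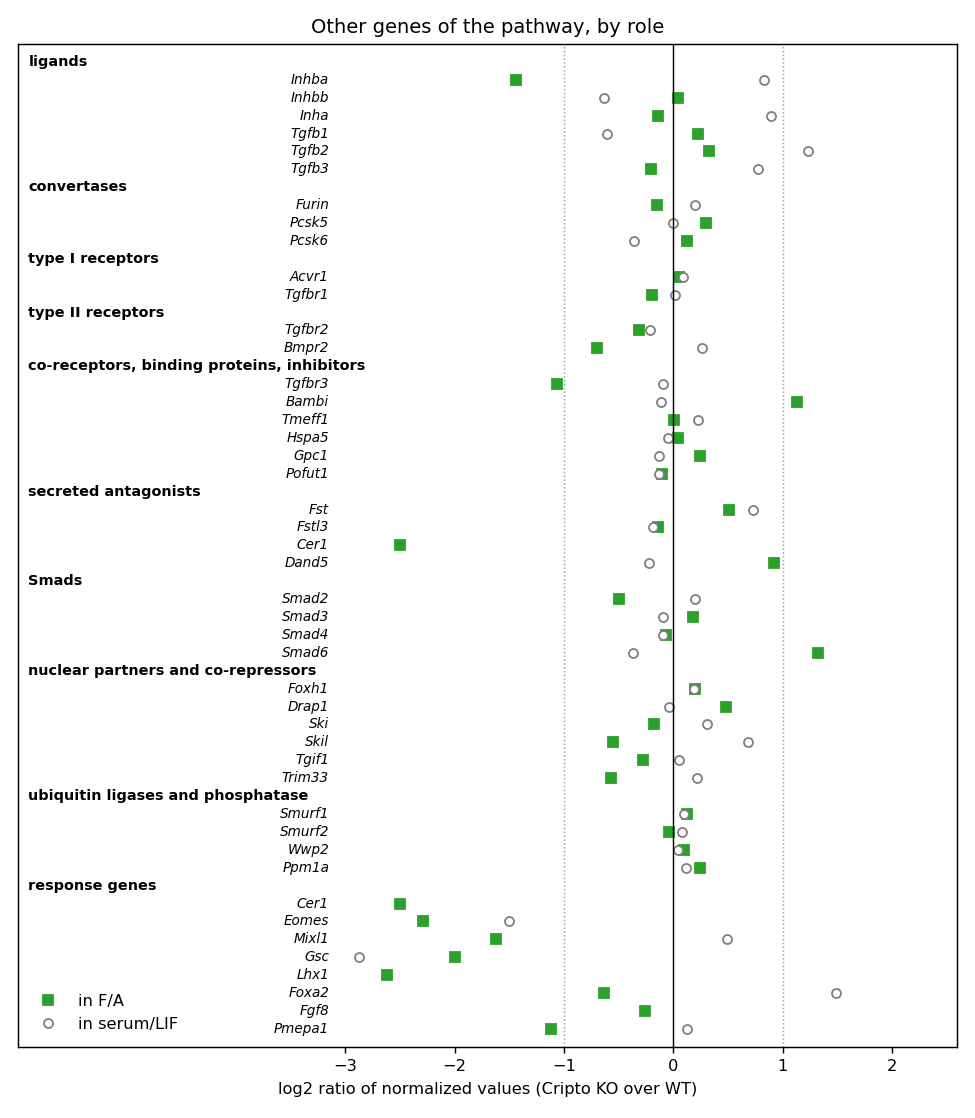
Log2 ratio of Cripto KO to WT for each of the other pathway genes that passed the filter, by role, in F/A (green squares) and serum/LIF (open circles). Dotted lines mark 2-fold, Cer1 stands under both of its roles, and no circle is drawn where both serum/LIF libraries had at most 3 counts. Of the 8 response genes 6 lie at or beyond the lower dotted line in F/A, with a median of -1.81.

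The cell type labels were set against marker lists. Naive ESC markers summed to 3908 CPM in WT serum/LIF and 3535 in Cripto KO serum/LIF, against 66.3 and 62.0 in the F/A libraries. Primed EpiSC markers summed to 204 and 218 in serum/LIF, 1803 in WT F/A and 1462 in Cripto KO F/A. In Cripto KO F/A, however, Fgf5 had 394 counts against 2206 in WT F/A and Otx2 678 against 2375. These defining EpiSC markers were thus lower under the same label. Krt18, a keratin gene, had the most counts of that list, 14581 in WT F/A and 16184 in Cripto KO F/A. It was not lower and weighed most in both F/A sums, so these sums hide the lower values of the other markers. Every other marker of that list had fewer counts in Cripto KO F/A than in WT F/A. Cldn6 had 4764 and 3358 counts, Dnmt3b 3515 and 2384 and Pou3f1 15 and 10. For Pou3f1, whose symbol is not unique in the annotation, only the entry with the most counts was used. Trophoblast markers summed to 69.1 and 43.7 in WT and Cripto KO serum/LIF, 42.7 in WT F/A and 179 in Cripto KO F/A. Tfap2c carried the serum/LIF sums at 1191 and 705 counts, and the other 4 were at or under the detection limit there. In WT F/A and Cripto KO F/A Tfap2c had 110 and 160 counts. Between the F/A libraries Hand1, also a mesoderm gene, went from 196 to 1730 counts and Cdx2 from 104 to 674, while Gata3 had 238 and 252 and Elf5 2 and 0. Fibroblast markers summed to 62.9 and 58.1 in WT and Cripto KO serum/LIF, 47.1 in WT F/A and 144 in Cripto KO F/A. The collagen genes carried the difference in F/A, Col1a1 at 504 and 1496 counts and Col3a1 at 72 and 610. Thy1 had 18 and 28 counts and Postn 124 and 138. Markers of visceral and primitive endoderm summed to 87.1 and 139, carried by Gata4 at 831 and 1356 counts and Gata6 at 465 and 798. Sox7 had 20 and 10 counts, Amn 2 and 0, Hnf4a 2 and 4 and Ttr 7 and 14, and Afp was at 0 in every library. The 3 neural markers summed to 29.3 and 34.4. The lower Lefty1, Lefty2 and response gene values of Cripto KO F/A came from this same library, and the part of its cell makeup in them was not tested.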

How the data were processed

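RNA was isolated with an RNeasy kit and sequenced as paired-end reads, 1 library per condition. The authors aligned the reads to mm9 (NCBIM37) with TopHat2 2.0.13, counted them per gene with HTSeq 0.6.1p1 and deposited whole-number counts. The strand setting is not given in the sources used here. The authors also deposited a signal made from these counts, full-quantile normalized and then filtered at 1 CPM. Columns were matched by name and 0 were left without a sample.

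Symbols, coordinates and transcript lengths came from an annotation of the same build, which named 37205 (98.9%) of the genes. Changes are log2 ratios of normalized values with 0 replaced by 0.5, and a change was counted at 2-fold or more. Clopper-Pearson and Poisson intervals at 95%, and Wald intervals for the differences of transitions, came from raw counts, those of Cripto KO F/A divided by 2. They cover counting error only, which is small for abundant genes at summed counts of 15230856 to 17315442. The Cripto KO F/A total of 15740587 was divided by 2 as well, so the effective depth of that library was below this range. The detection limit was 3 counts, and 6 in Cripto KO F/A. The intervals were tested on simulated Poisson counts, the model that they assume, without the division by 2. That check says nothing of the spread between cultures. No test across genes was run, as there is 1 library per condition.

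The genes named were the 10 chosen, genes of the pathway list with a 2-fold change and an interval leaving out 1, and the 3 genes nearest in pattern to Tdgf1, Nodal and Lefty1. Pathway genes given outside this rule and all marker genes were named after their values were seen. The 10 genes and all lists were chosen with earlier results of these data known. A gene of these lists and the Lefty sequences are not reported here, and the list counts and sums leave that gene out. Alternatives were total-count scaling, TMM (edgeR 4.0.16), size factors (DESeq2 1.42.0), 5 added to every value, no filter, a mean of at least 50 counts, removal of the running median over transcript length, and folds of 1.5 and 3. Python 3.11.15, numpy 2.4.6, pandas 2.3.3, scipy 1.17.1, matplotlib 3.10.9 and R 4.3.3 were used.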

Additional observations from a re-analysis of the deposited data

Results flagged for a closer look

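Nodal, Lefty1 and Lefty2 drew attention because their single libraries moved in opposite directions from serum/LIF to F/A in the 2 genotypes. The difference of the log2 changes, Cripto KO minus WT, was -0.98 for Nodal, -3.51 for Lefty1 and -2.88 for Lefty2. These differences between WT and Cripto KO were not tested, since each condition has 1 library.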

How the results depend on the processing

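No paired analysis was possible because the groups share 1 replicate number only. With 1 library per condition none was left out. No log2 change between libraries turned its direction under the alternatives. The difference of the transitions changed sign for the 3 genes whose counting interval held 0, with ranges of -0.18 to 0.04 for Tdgf1, -0.64 to 0.40 for Cfc1 and -0.20 to 0.115 for Gdf3. Of the counts of genes past 2-fold, 2 moved by over 1.5 times, and both followed from the fold itself. The count higher in Cripto KO than in WT in F/A went from 0 to 1 (Cfc1) at a fold of 1.5, and the count higher in serum/LIF from 3 to 1 (Lefty1) at a fold of 3. The latter count was 2 with Cfc1 below 2-fold under total-count scaling, TMM, DESeq2 size factors and 5 added to every value. Lefty1 in the WT transition stood close to 2-fold and ranged from 0.89 to 1.27 log2 units, and Acvr2a in the Cripto KO transition from 0.79 to 1.07. Removal of the length trend moved 11 log2 values by more than their counting interval, among them Acvr2a in the WT transition to 1.04 and Lefty1 between genotypes in F/A to -1.97. The difference of the transitions ranged from -3.82 to -3.49 for Lefty1, -2.97 to -2.85 for Lefty2 and -1.21 to -0.95 for Nodal. Depth limits Cfc1 in serum/LIF and Gdf3 in F/A, with 3 to 10 counts.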
